A study of Rattus norvegicus with 12 samples.

Results

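Acsl1, Hsd17b12 and Cpt2 encode enzymes that activate, elongate and oxidise fatty acids. They were read by 8 of the 18144 array features, 4 for Acsl1 (Entrez gene 25288), 2 for Hsd17b12 (84013) and 2 for Cpt2 (25413), as the features whose only gene symbol in the array's annotation table was one of these names. The 3 genes were picked because of their differences between alcoholic and control animals in these same arrays, so those differences are given as a description and without a test. RNA came from tissue labelled NTS, punched from 250 μm slices of rat tissue and combined per sample. The labels call 6 animals alcoholic and 6 control and join them into 6 animal pairs. The series title speaks of ethanol treatment, and strain, age, sex, dose, duration and the animals' care are not given in the sources used here. Each animal had 1 array, with its amplified RNA labelled in Cy5 (red) and a reference RNA in Cy3 (green).

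A long-chain fatty acid enters metabolism only after an acyl-CoA synthetase has joined it to coenzyme A. Acsl1 is such a synthetase, found on the endoplasmic reticulum and the outer mitochondrial membrane. The activated acid can be lengthened in the endoplasmic reticulum, where Hsd17b12 carries out the ketoacyl-CoA reduction step of the elongation cycle, or it can pass into mitochondria as acylcarnitine. Cpt2, on the inner mitochondrial membrane, turns acylcarnitine back into acyl-CoA for beta-oxidation. In the brain, fatty acid oxidation is usually ascribed mainly to astrocytes, and elongation supplies the very long chains of myelin lipids.

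Values are log2 ratios of animal over reference, less the median of the array. The dyes make that direction likely, but the value table does not state it, and all signs turn if it is the opposite. Before centring, array medians lay between 0.35 and 1.85. An exact 0 in the deposited table was treated as missing. Such zeros made up 2.67% to 4.00% of an array, and 86.7% of all features had none. No gene was called between the groups by limma, fitted with animal pairs as blocks: 0 of 11835 genes and unnamed features, or 0%, had an adjusted p under 0.05, and 290 had an unadjusted p under 0.05. With each feature on its own, 0 of 17012, or 0%, were called and 406 had an unadjusted p under 0.05. Samples were whole tissue, so fewer cells of a type and less RNA per cell cannot be told apart.

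The 8 features fell into 4 clones, each spotted as a pair of neighbours, and the clones differed widely in how completely they were measured. Cpt2 and one Acsl1 clone were read on all 12 arrays. The other Acsl1 clone (features 4260 and 4261) and the Hsd17b12 clone (features 575 and 576) had exact zeros on many arrays. Features 4260 and 4261 were each missing on 6 arrays, as only 1.82% of all features were on at least that many. Feature 575 was missing on 4 arrays and feature 576 on 2. These sparse features also had the highest ratios to the reference, at means of 2.68 to 3.65, between the 93.9th and the 98.8th percentile of all features. Array-wide, 29.9% of the values were missing for features with a mean log2 ratio above 3, and 1.03% for those between 0 and 2.

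**Figure D1:**
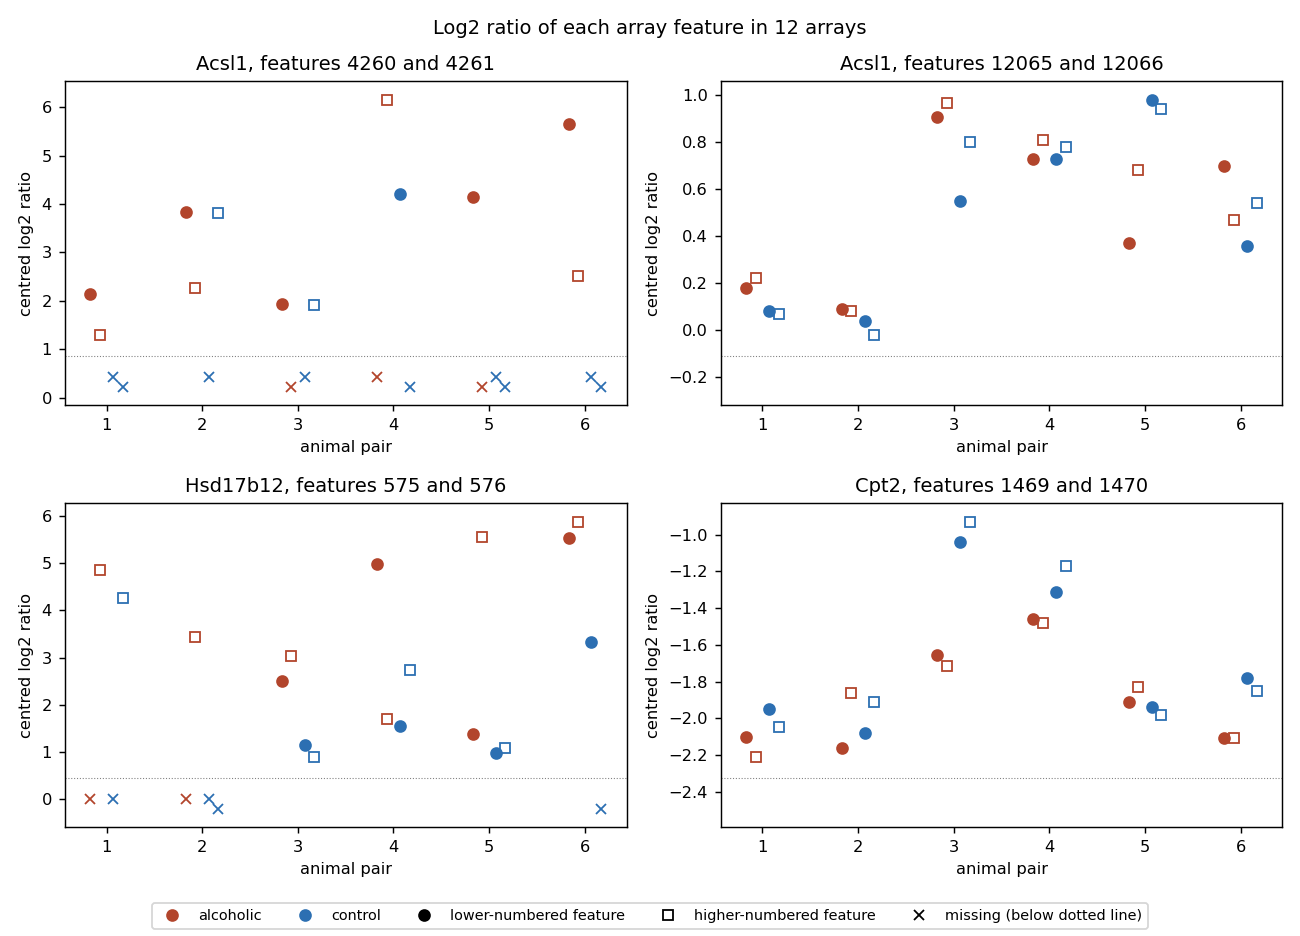
Centred log2 ratio (vertical axis, a separate scale in each panel) of the 8 features by animal pair (horizontal axis), with alcoholic arrays in red and control arrays in blue, filled circles for the lower-numbered and open squares for the higher-numbered feature of a clone, and crosses below the dotted line for missing values. The Acsl1 clone at upper left lacks 9 of 12 control values but only 3 of 12 alcoholic ones, while the clone at upper right is complete and lies between -0.02 and 0.98.

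Acsl1 as a mean over all its measured features was higher in the alcoholic animal of 6 of 6 pairs. Among all genes and unnamed features measured in every pair, 0.781% had that pattern, and since the gene was picked from this contrast nothing is read from the comparison. Mean log2 ratios were 1.74 ± 0.61 (SD, n = 6) in the alcoholic group and 0.96 ± 0.64 (SD, n = 6) in the control group. The difference was 0.78 (SE 0.22), or 1.72-fold. Pair differences were 0.89, 0.29, 0.18, 0.66, 0.77 and 1.88 for pairs 1 to 6, so pair 6 was the highest, and the groups overlapped.

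The 2 Acsl1 clones did not show the same thing. In the complete clone, feature 12065 ranged from 0.09 to 0.905 in alcoholic animals (median 0.535) and from 0.04 to 0.98 in controls (median 0.455). Its neighbour, feature 12066, ranged from 0.08 to 0.965 and from -0.02 to 0.94. The groups therefore covered almost the same range on both spots. The difference was 0.04 (SE 0.15) on feature 12065, which was higher in 4 of 6 pairs, equal in pair 4 and lower in pair 5. On feature 12066 it was 0.02 (SE 0.11), with 4 of 6 pairs higher. Without centring the spots gave -0.01 and -0.03. The SD of the 6 pair differences was 0.35 on the first spot and 0.16 on the second, wider than either difference.

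In the sparse clone, feature 4260 had values of 2.15, 3.84, 1.935, 4.14 and 5.65 in the alcoholic animals of pairs 1, 2, 3, 5 and 6. Its only control value was 4.20, in pair 4, so it had no pair with both values. Feature 4261 had alcoholic values of 1.30, 2.27, 6.15 and 2.51 in pairs 1, 2, 4 and 6, and control values of 3.82 and 1.91 in pairs 2 and 3. Its single complete pair, pair 2, differed by -1.55. Where this clone was read, alcoholic and control values overlapped: averaged over its spots it stood at 3.51 ± 1.65 (SD, n = 6) in the alcoholic group and 3.31 ± 1.23 (SD, n = 3) in the control group. What differed was how often it was read. Feature 4260 was measured on 5 alcoholic and 1 control arrays and feature 4261 on 4 and 2. Over the whole array, 28 features, or 0.154%, were measured on at least 4 more alcoholic than control arrays, and feature 4260 was among them. In the opposite direction there were 17 features, or 0.0937%. Only the 928 features missing on at least 4 arrays could show such an imbalance in either direction. The count was made after the values were seen and the gene was picked from this contrast, so nothing is read from it.

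The clones also stood at different levels against the same reference. On the 9 arrays that read both, the sparse clone was above the complete one on 9, by 1.00 to 5.38 log2 units with a median of 3.45. The gene mean of an array therefore depended on which of these features it had read. In pairs 1 and 6 the alcoholic array measured 4 features and the control array 2, in pair 2 they measured 4 and 3, and in pair 5 they measured 3 and 2. In pairs 3 and 4 both arrays measured 3 features, but only 2 of them were the same. With a feature counted in a pair only where both arrays measured it, the Acsl1 difference was -0.06 and its sign turned. Pair differences were then 0.13, -0.47, 0.26, 0.02, -0.44 and 0.14. With the median of the measured features in place of their mean, the difference was 0.48.

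The measured features differed between the arrays of at least 1 pair for 636 of the 4497 tested genes with a single symbol, or 14.1%, and in at least 4 pairs for 3.74%. Acsl1 did so in 6 of 6 pairs. Matching the features within pairs moved 64 of the 4497 genes, or 1.42%, by more than 0.5 log2 units, and Acsl1 ranked 18th of them by the size of the move. Hsd17b12 ranked 371st and Cpt2 was not moved.

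**Figure D2:**
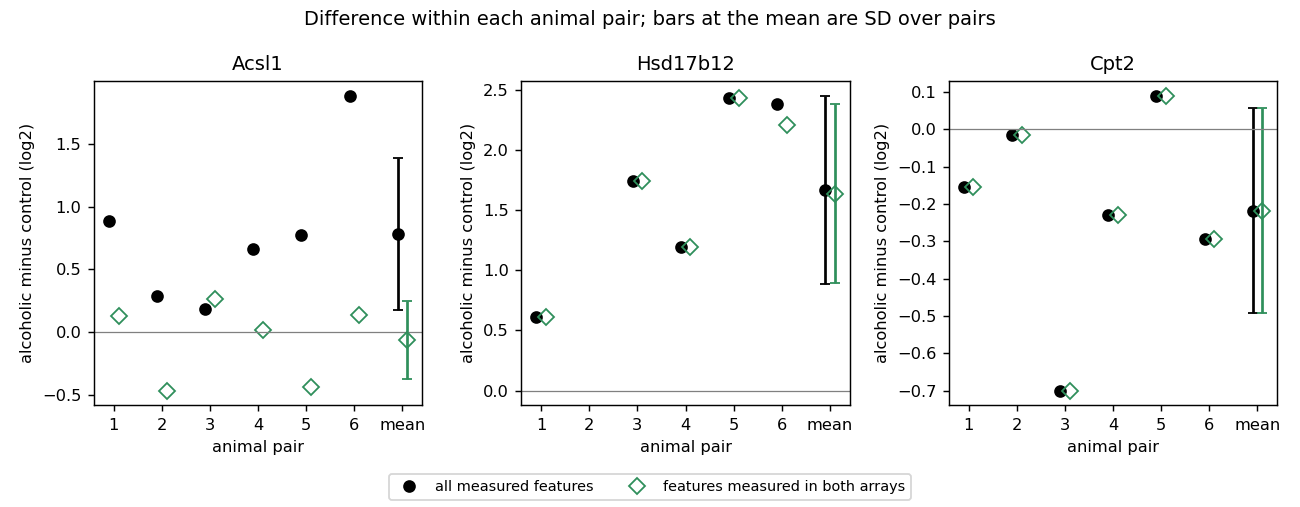
Alcoholic minus control difference in log2 units (vertical axis) in each animal pair (horizontal axis), as the mean of all measured features (black circles) and of the features measured on both arrays of a pair (green diamonds), with the mean over pairs and its SD at the right of each panel. For Acsl1 the mean is 0.78 by the first and -0.06 by the second, for Hsd17b12 1.67 and 1.64, and for Cpt2 -0.22 by both.

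Hsd17b12 had the widest difference of the 3 genes. The mean of its features was 3.93 ± 1.11 (SD, n = 6) in the alcoholic group and 2.36 ± 1.42 (SD, n = 5) in the control group. Pair 2 had no control value, so the fit took its difference from the other 5 pairs, and it was 1.67 (SE 0.29), or 3.18-fold. Pair differences were 0.61, 1.74, 1.20, 2.43 and 2.38 in pairs 1, 3, 4, 5 and 6, so 5 of 5 were higher in the alcoholic animal. The SD of these 5 differences was 0.78. The ranges of the groups overlapped, from 2.77 to 5.70 in alcoholic and from 1.03 to 4.25 in control animals. Matching the features within pairs gave 1.64.

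The 2 spots of the Hsd17b12 clone gave the pair differences in different places. Feature 575 had alcoholic values of 2.495, 4.98, 1.38 and 5.53 in pairs 3 to 6 against control values of 1.15, 1.56, 0.99 and 3.32. It was higher in the alcoholic animal of 4 of 4 pairs, by 3.42 in pair 4 and by only 0.39 in pair 5. Feature 576 had alcoholic values of 4.86, 3.43, 3.035, 1.71, 5.55 and 5.87 in pairs 1 to 6, and control values of 4.25, 0.90, 2.74 and 1.08 in pairs 1, 3, 4 and 5. It was higher by 4.47 in pair 5 and lower by 1.03 in pair 4, so the 2 spots of the same clone went opposite ways in pair 4. Over 4 pairs each, the differences were 1.84 (SE 0.48) on feature 575 and 1.55 (SE 0.84) on feature 576. The SD of the 4 pair differences was 1.29 on feature 575 and 2.34 on feature 576. With exact zeros kept as values the mean differences were 1.13 and 2.79, so their order turned. The widest gaps between the spots were on alcoholic arrays, at 3.27 in pair 4 and 4.17 in pair 5. The other alcoholic gaps were 0.54 in pair 3 and 0.34 in pair 6, and the control gaps were 0.25, 1.18 and 0.09 in pairs 3, 4 and 5.

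Cpt2 was the best measured of the 3 genes and stood below the array median, with a mean log2 ratio of -1.79 on feature 1469 and -1.76 on feature 1470. Alcoholic animals had -1.88 ± 0.27 (SD, n = 6) and controls -1.67 ± 0.44 (SD, n = 6) over both spots. Feature 1469 ranged from -2.16 to -1.46 in alcoholic and from -2.08 to -1.04 in control animals, and the groups overlapped. The difference was -0.22 (SE 0.13), a 1.16-fold lower ratio in alcoholic animals. Pair differences were -0.16, -0.02, -0.70, -0.23, 0.09 and -0.30 in pairs 1 to 6, with 5 of 6 lower. The control animal of pair 3 had the highest of all 12 values, -0.99, and without that pair the difference was -0.12. The spots gave -0.22 each. Feature 1469 was lower in 5 pairs and feature 1470 in 4, and in pair 2 they went opposite ways (-0.08 and 0.05).

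Neighbouring spots give the repeatability of a reading. For all 5592 spot pairs of a shared accession that were read together on at least 2 arrays, the median gap between the spots had a median of 0.19 log2 units. It was 0.06 for the complete Acsl1 clone and 0.09 for Cpt2, both over 12 arrays, and the largest gap on any array was 0.31 and 0.30. It was 0.54 for Hsd17b12 over 7 arrays, with gaps above 1 on 3 of them, and 1.57 for the sparse Acsl1 clone over 3 arrays. Spot pairs with a mean log2 ratio above 3 had a median gap of 1.21 as a whole, and those between 2 and 3 had 0.71. The mean log2 ratio of Hsd17b12 was 3.05, close to the border of these levels. The Hsd17b12 gap of 0.54 was below the median of both levels, so it is not read as unusual for its level. The gap of 1.57 for the sparse Acsl1 clone was above 1.21, but its 3 arrays were all alcoholic, so nothing is read from it. The largest gap on a single array was 4.17 for Hsd17b12 and 3.14 for the sparse Acsl1 clone.

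**Figure D3:**
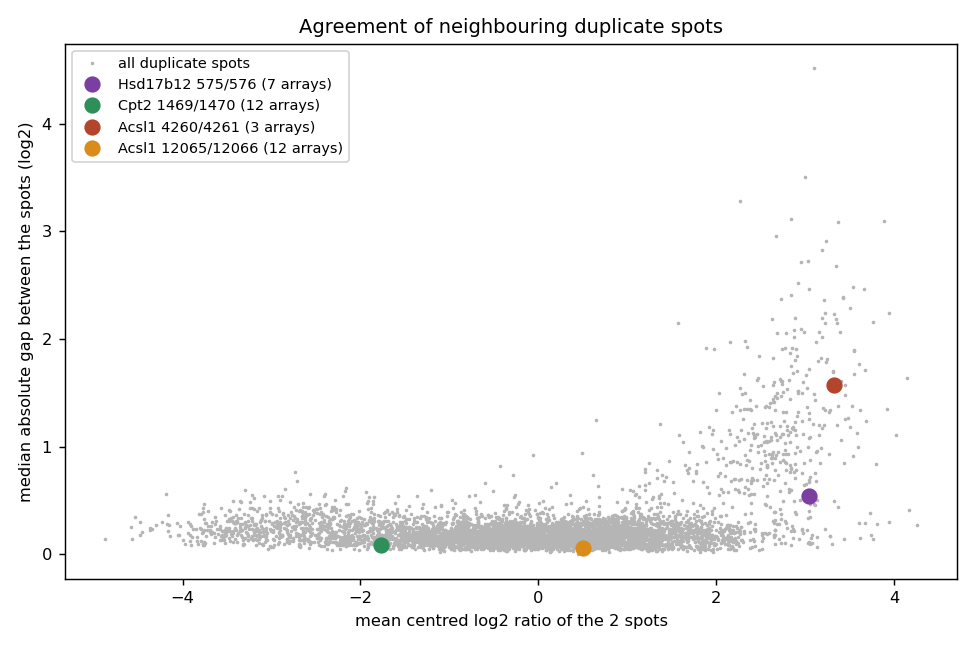
Median absolute gap between neighbouring duplicate spots over the arrays, in log2 units (vertical axis), against the mean centred log2 ratio of both spots (horizontal axis), with 1 grey point per duplicate and the 4 clones of Acsl1, Hsd17b12 and Cpt2 in colour. The gaps widen above a log2 ratio of about 2, where Hsd17b12 (0.54) and the sparse Acsl1 clone (1.57) lie, while Cpt2 (0.09) and the complete Acsl1 clone (0.06) lie in the flat part.

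Animals of a pair were compared for the clones read on all arrays. The genes were picked by differences in these same values, so the choice is not independent of this relation. The p-values below do not allow for that, so nothing is read from them. Over the 6 pairs, alcoholic and control values of the complete Acsl1 clone had a Pearson r of 0.78 (two-sided exact permutation p = 0.078) and a Spearman rho of 0.60 (exact permutation p = 0.24). For Cpt2 r was 0.81 (exact permutation p = 0.10) and rho 0.77 (exact permutation p = 0.10). After Benjamini-Hochberg adjustment over the 2 clones, the permutation p was 0.10 for both r and 0.24 and 0.21 for rho. These values are a description. Without the 2 pairs farthest from the median of the alcoholic values, r was 0.72 for Acsl1 and -0.21 for Cpt2. Leaving out the outermost pairs narrows the range, which by itself can lower r, so nothing is read from the change.

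The genes most like each of the 3 were those with a single symbol and the highest Pearson r over the arrays read in both, picked from 4433 to 4486 genes and given as a description. The Acsl1 mean was most like Lmo4 (r = 0.84, 12 arrays), Anxa6 (0.83, 12 arrays) and Ctsa (0.81, 10 arrays). That mean depended on which Acsl1 features an array had read, so these need not be genes that vary like Acsl1 itself. Likeness to the complete Acsl1 clone alone was not examined. Hsd17b12 was most like Zbtb7a (0.85, 10 arrays), Sesn1 (0.83, 11 arrays) and Pptc7 (0.82, 11 arrays). Cpt2 was most like Tarbp2 (0.92), Stxbp5 (0.92) and Asl (0.91), over 12 arrays each. All of these share the 12 arrays and the same reference.

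The other genes of fatty acid metabolism had differences centred near 0. Of 184 listed genes, 76 were measured in enough pairs, and limma called 0 of the 76 at an adjusted p under 0.05. Unadjusted p was under 0.05 for 0 of them, for 1.56% of tested genes with 1 symbol and for 2.45% of all tested. The 76 leave out Acsl1, Hsd17b12 and Cpt2, which were picked from this contrast, so nothing is read from that 0. Of the 76, 45 were higher and 31 lower in alcoholic animals, so 59.2% were higher, with a median difference of 0.01 and quartiles of -0.06 and 0.09. Over all 11835 tested, 51.7% were higher, and the median was 0.01 with quartiles of -0.10 and 0.11. For 69 of the 76 the 95% interval left room for less than a 2-fold change up or down. Adjusted p by limma was 0.999 for each gene named here.

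Close to Acsl1, 10 other acyl-CoA synthetases and fatty acid transporters had a median of 0.02 (7 higher, 3 lower). Acsl6, a synthetase abundant in brain, differed by 0.12 (95% interval -0.14 to 0.38) and the fatty acid transport protein gene Slc27a1 by -0.20 (-0.52 to 0.12). Without 1 pair they ranged from 0.08 to 0.19 and from -0.26 to -0.11. Among 8 other elongation and desaturation genes 6 were higher, with a median of 0.09. Elovl7, an elongase of saturated long chains, differed by 1.17 (-0.50 to 2.84), of which pair 2 gave 5.43, and by 0.32 without that pair. The delta-5 desaturase gene Fads1 differed by 0.17 (-0.09 to 0.44).

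Around Cpt2, 3 of 5 other carnitine shuttle genes were higher and 2 lower. Slc22a5, the cell's carnitine importer, differed by -0.29 (95% interval -0.60 to 0.03) and Crot, a peroxisomal carnitine acyltransferase gene, by 0.13 (-0.18 to 0.43; 0.07 without pair 3 and 0.23 without pair 6). The 13 genes of mitochondrial beta-oxidation had a median of 0.00, with 7 higher and 6 lower. Hadhb, the thiolase subunit of the trifunctional protein, differed by 1.60 (-0.74 to 3.94) over the 4 pairs that had it, from -1.45 in pair 1 to 4.39 in pair 5. The long-chain acyl-CoA dehydrogenase gene Acadl differed by 0.26 (-0.11 to 0.63; 0.16 without pair 1 or pair 2). The peroxisomal genes Hsd17b4 and Scp2 differed by 0.15 and 0.08, in a list of 4 with 2 higher, and both turned to -0.03 without pair 1.

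Genes that bind, build or store fatty acids went both ways. Of 8 thioesterase and binding protein genes 5 were higher, with the fatty acid binding protein genes Fabp3 at 0.56 (95% interval -0.63 to 1.74; 0.09 without pair 5) and Fabp5 at -0.21 (-0.04 without pair 3). Fabp3 was higher in the alcoholic animal of only 2 pairs and lower in 4. Of 6 synthesis genes 2 were higher, with the fatty acid synthase gene Fasn at -0.12 (-0.03 without pair 5) and the citrate carrier gene Slc25a1 at -0.28. Slc25a1 ranged from -0.49 without pair 3 to -0.07 without pair 6, and stood at -0.02 with exact zeros kept. Of 9 glycerolipid genes 6 were higher, with the lipid droplet coat gene Plin2 at -0.47 (-1.19 to 0.25; -0.13 without pair 4 and -0.07 with exact zeros kept) and the triglyceride synthesis gene Dgat2 at 0.17. The ketone body genes Bdh1 and Bdh2 differed by 0.07 and -0.03, in a list of 3 with 1 higher, and both changed sign without pair 3. Of 10 regulators 6 were higher, with a median of 0.00. Prkag1, a subunit of AMP-activated protein kinase, differed by -0.20 and the liver X receptor gene Nr1h2 by -0.14 (-0.06 without pair 3).

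**Figure D4:**
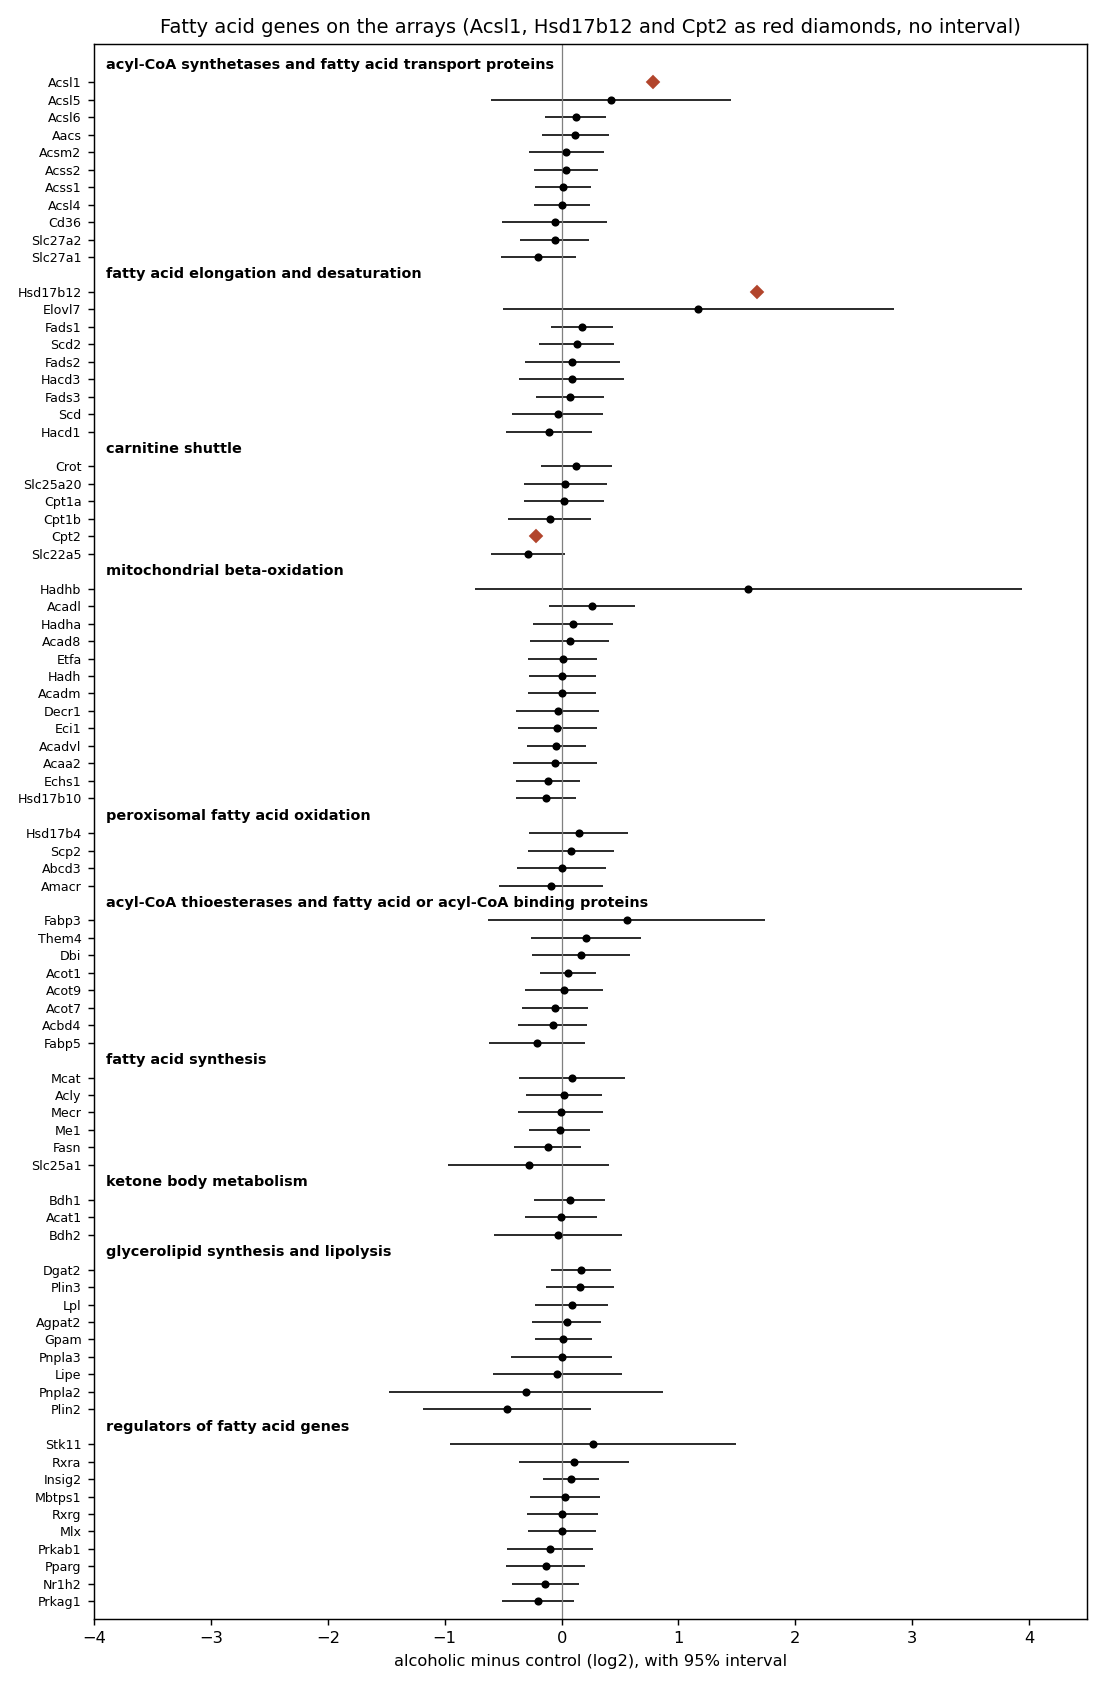
Alcoholic minus control difference in log2 units (horizontal axis) of the measured fatty acid genes, grouped by list, with limma's 95% interval as a bar for the 76 genes and red diamonds without an interval for Acsl1, Hsd17b12 and Cpt2. The bars of all 76 reach or cross 0, and the widest belong to Hadhb (1.60) and Elovl7 (1.17).

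Markers of cell types in the punches were read by few features and 0 were called, with 1 at an unadjusted p under 0.05, among the catecholamine and peptide neuron markers. Astrocyte markers had 7 of 8 measured members higher, with a median of 0.17 (S100b 0.37, Aldh1l1 0.32). S100b was 0.18 without pair 5, 0.70 without pair 6 and 0.14 with exact zeros kept. Aldh1l1 was 0.59 without the pair block, 0.68 with exact zeros kept and 0.93 with features matched within pairs. Its differences in the 4 pairs with both values ran from -1.21 to 1.415. The mean level of the astrocyte markers ranged from 0.50 to 1.41 over alcoholic and from 0.38 to 0.93 over control arrays. It lacked Aldh1l1 on the alcoholic array of pair 2 and the control array of pair 5. The part of these markers in the differences of Acsl1, Hsd17b12 and Cpt2 was not tested. Gfap, Aqp4, Slc1a2 and Slc1a3 had no feature under a single symbol. Vessel markers had 1 member higher and 6 lower, with a median of -0.09 (Tek -0.23, Kdr -0.16). Neuron markers had 4 of 7 higher, with a median of 0.02 (Nefh 0.36, Elavl3 0.10), and oligodendrocyte markers 3 of 5, with a median of 0.04 (Tspan2 -0.50, Cnp 0.15). Of 6 microglia and macrophage markers 5 were higher, with a median of 0.04 (Ctsb 0.10, Tyrobp 0.07). Of 6 blood markers 4 were higher, with a median of 0.04 (S100a8 0.27, Pf4 0.10), as were 3 of 5 markers of ependyma, meninges and choroid plexus, with a median of 0.17 (Aqp1 -0.35, Col1a2 0.35). Single pairs carried much of several of these: Nefh was 0.12 without pair 4, Tek -0.04 without pair 6, Kdr -0.05 without pair 5, Col1a2 0.14 without pair 2, Cnp 0.01 without pair 1 and Pf4 0.02 without pair 1. Ctsb stood at 0.00 without pair 1, and Elavl3, Tspan2, Tyrobp, S100a8 and Cck changed sign without 1 pair. Of 20 markers of catecholamine and peptide neurons that the tissue could hold, 9 were measured and 7 were higher, with a median of 0.07 (Npy 0.32, Cck 0.25), while Th and Dbh were not read. A ratio to a reference does not show whether a marker was present, so the tissue label could not be checked.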

How the data were processed

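Per the labels, tissue was punched, RNA was isolated, amplified and labelled indirectly, and each animal's RNA (Cy5) was hybridised at 37 °C with a reference (Cy3). All arrays had 1 dye orientation. The deposited values are log2 ratios; image analysis, background correction, filters and normalization are not given in the sources used here. Base 2 follows from the largest size, 13.92, which exceeds what 16-bit signals allow in natural logs (11.09) or log10 (4.816). The annotation table is an old one and named 10118 features with 1 symbol and 1092 with several, leaving 6934 unnamed; sequences and coordinates were not used here.

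Exact zeros were set to missing, arrays were centred on their medians, and features of a single symbol were averaged. Genes with both values in at least 4 of the 6 pairs were fitted with limma 3.58.1 in R 4.3.3 (lmFit, eBayes), with the animal pair as a block and Benjamini-Hochberg adjustment at 0.05 over all of them. Standard errors are limma's moderated ones, and a pair with a missing value adds nothing to a difference. The block comes from the labels, which state the pairs. Folds are 2 to the power of a log2 difference. The number of arrays limits the precision, and signal over background was not used here. The labels do not say how the 6 animals of a group were kept, so p-values measure the spread between these samples. The fit was tested on simulated data for genes without missing values, which does not cover the sparse features.

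The 3 genes and the gene lists were chosen with earlier results of these data known. Named besides the 3 genes are the 2 of each fatty acid list with the smallest p, the 2 markers of each list with the widest difference, and the 3 genes most like each. Zbtb7a is named by the likeness rule.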

Additional observations from a re-analysis of the deposited data

Results flagged for a closer look

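In 9 of the 92 groups of arrays examined for the named genes, 1 animal stood well apart from the rest. The rule takes about 1 group in 20 to do so by chance for genes that were not picked, and that rate was not measured on these arrays. The genes examined were picked by this contrast, through a difference or a p, and 1 far animal can widen a difference. Nothing is therefore read from the count. None of the 20 groups of Acsl1, Hsd17b12 and Cpt2 and their features with at least 4 values held such an animal. The one fatty acid gene was Elovl7, at a centred log2 ratio of 2.84 in the alcoholic animal of pair 2, where the other alcoholic animals lay between -2.72 and -1.96. Among the markers, alcoholic animals stood apart for S100b in pair 5 (3.68), Nefh in pair 4 (2.74), Tyrobp in pair 3 (0.83), Col1a2 in pair 2 (-2.55) and Cck in pair 6 (5.99). Control animals did so for Tspan2 in pair 4 (3.74), Tek in pair 6 (2.28) and Col1a2 in pair 5 (-4.45).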

How the results depend on the processing

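The gene mean differences of Hsd17b12 and Cpt2 kept their sign under each alternative tried, and that of Acsl1 under each but 1. Acsl1 differed by -0.061 on features matched within pairs, an alternative chosen after seeing the data, and by 0.039 on the single feature with the most measured pairs. Without 1 pair, the gene mean differences ranged from 0.56 to 0.90 for Acsl1, from 1.48 to 1.94 for Hsd17b12 and from -0.28 to -0.12 for Cpt2. The difference on feature 12065 of Acsl1 then ranged from -0.02 to 0.17. Keeping zeros as values gave gene mean differences of 1.10, 1.96 and -0.22. Without the pair block they were 0.78, 1.57 and -0.22, and limma called 0 genes, with 142 at an unadjusted p under 0.05. Without centring it called 4 genes and 20 single features at an adjusted p under 0.05, and the cause was not tested; the other alternatives called 0 of either. Acsl1, Hsd17b12 and Cpt2 were not among those called.

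Of the other named genes, 9 changed sign under some alternative, all by leaving out 1 pair, and Cck also with matched features (-0.016). Their ranges without 1 pair were -0.032 to 0.25 for Hsd17b4, -0.031 to 0.18 for Scp2, -0.016 to 0.13 for Bdh1, -0.27 to 0.064 for Bdh2, -0.03 to 0.16 for Elavl3, -0.81 to 0.041 for Tspan2, -0.055 to 0.14 for Tyrobp, -0.12 to 0.51 for S100a8 and -0.24 to 0.91 for Cck. The cause was not tested. Symbols from an old table, few pairs for the sparse clones and the unstated direction of the ratios limit each value.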
